A study of Mus musculus with 9 samples.

Results

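The genes described here are 10 genes of mouse MHC class I antigen presentation: the heavy chain genes H2-K1, H2-D1, H2-Q4, H2-T23 and H2-M3, the light chain gene B2m, the peptide transporter genes Tap1 and Tap2, the loading factor gene Tapbp and the immunoproteasome gene Psmb8. They were taken by symbol from a table of 54513 genes in 9 RNA-seq libraries, and all 10 were among the 18690 genes with enough counts to be tested. The group was chosen from earlier results of the same table, in which H2-Q4 and H2-K1 were lower in Trp libraries than in HFD libraries. The Trp against HFD differences of the members are therefore given as a description, without a p-value.

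A class I molecule consists of a polymorphic heavy chain, beta-2 microglobulin and a short peptide. The peptides are cut by the proteasome, of which the immunoproteasome is a form induced by interferons, carried into the endoplasmic reticulum by the transporter TAP and fitted to the heavy chain with the help of tapasin. The loaded complex is shown at the cell surface to CD8 T cells and natural killer cells. In the brain, class I transcripts are known from microglia and endothelial cells and, at lower levels, from neurons, and in mice class I molecules have been linked to the pruning and plasticity of synapses.

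Every mouse ate a high-fat diet over 12 weeks, and each group had 3 mice. In the Trp group 0.5% tryptophan by weight was mixed into it, in the IPA group indole-3-propionic acid in saline was given by gavage at 100 mg per kg each day, and in the HFD group nothing was added. Indole-3-propionic acid is a product that gut bacteria make from tryptophan. No group on ordinary chow was included, so the values do not show what the high-fat diet itself did, and the labels used here give neither strain nor sex. In the table the groups have column codes that the labels pair with the samples but do not explain. It is not settled from the labels or the table that the columns hold these diet groups and not another set of mice, and the group names below are those of the labels.

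Libraries held 40621084 to 50938746 counts, at which depth 3 counts correspond to 0.0584 to 0.0751 CPM. Levels are given as CPM, the deposited counts scaled to library size, and as FPKM, the deposited values per length, where genes are compared with each other. Tests were made with edgeR over all 18690 genes, a gene was called at a Benjamini-Hochberg adjusted p under 0.05, and log2 fold changes are given with their standard error (SE). The tissue is labelled hippocampus. The 8 markers of dentate granule cells summed to 362 to 447 CPM and the 8 markers of CA pyramidal cells to 406 to 526 CPM over the 9 libraries. The 10 markers of striatal neurons, which mark a neighbouring region, summed to 1836 to 2652 CPM in Trp, 2586 to 3445 CPM in IPA and 803 to 2606 CPM in HFD libraries. The third HFD library stood apart from the others of its group in single genes. It had 94.3 CPM of B2m, against 59.1 and 68.5 CPM, and 2.02 CPM of Creb1, against 47.1 and 51.1 CPM. Some of the results that rest on that library are also given without it.

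Of the 10 genes, 9 lie on chromosome 17 and B2m lies on chromosome 2. The table places H2-K1 at 34214991 to 34219321 on the minus strand, H2-D1 at 35481706 to 35486475, H2-Q4 at 35598593 to 35604266, H2-T23 at 36340665 to 36343747 on the minus strand and H2-M3 at 37581111 to 37585375. Tapbp, Tap1, Psmb8 and Tap2 lie in this order between 34134873 and 34435295, with H2-K1 and other genes between Tapbp and Tap1. These positions are those of the deposited table, whose starts differ from those of the GRCm38 annotation used here, so that their build is not settled.

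Promoters are shown for the heavy chain genes whose levels separated Trp from HFD libraries, and for B2m as the partner of every heavy chain. The sequences are the 180 bases before the RefSeq start site on build GRCm38.p6, read 5′ to 3′ on the strand of the gene. They lie at chr17:34000334-34000513 on the minus strand for H2-K1, chr17:35262914-35263093 on the plus strand for H2-D1, chr17:35379437-35379616 on the plus strand for H2-Q4, chr17:36032702-36032881 on the minus strand for H2-T23 and chr2:122147507-122147686 on the plus strand for B2m. Capitals mark matches to 4 motifs, read on either strand: GGGATTCCC of the NF-kappa B type, AANNGAAA of the interferon regulatory factor (IRF) type, TGACG as the core of the X2 box, and CCAAT as in the Y box.
H2-K1: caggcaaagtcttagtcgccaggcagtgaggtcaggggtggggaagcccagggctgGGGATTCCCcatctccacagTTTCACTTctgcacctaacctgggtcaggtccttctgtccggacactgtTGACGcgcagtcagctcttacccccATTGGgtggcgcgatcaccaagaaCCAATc
H2-D1: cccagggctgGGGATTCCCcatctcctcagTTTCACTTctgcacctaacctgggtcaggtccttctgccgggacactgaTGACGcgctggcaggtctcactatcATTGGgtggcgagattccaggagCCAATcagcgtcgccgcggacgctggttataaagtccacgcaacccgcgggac
H2-Q4: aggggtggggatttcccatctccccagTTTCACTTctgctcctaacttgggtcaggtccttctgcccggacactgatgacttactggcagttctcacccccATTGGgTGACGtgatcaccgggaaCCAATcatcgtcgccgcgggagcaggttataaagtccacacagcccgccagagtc
H2-T23: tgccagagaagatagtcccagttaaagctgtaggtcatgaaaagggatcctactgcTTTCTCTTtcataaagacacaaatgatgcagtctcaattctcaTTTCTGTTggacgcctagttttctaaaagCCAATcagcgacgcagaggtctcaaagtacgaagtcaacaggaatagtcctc
B2m: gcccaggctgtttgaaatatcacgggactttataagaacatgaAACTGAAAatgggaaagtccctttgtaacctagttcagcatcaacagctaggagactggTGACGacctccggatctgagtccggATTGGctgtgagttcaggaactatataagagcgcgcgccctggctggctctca

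Class I promoters are known to hold an NF-kappa B site, an interferon-response element and, closer to the start, a module of the W/S, X and Y boxes to which the coactivator NLRC5 is recruited. The motif letters were chosen with these promoters in view, a match is only a match of letters, and none of the motifs overlapped another. In the 250 bases before the start, AANNGAAA was found in 21.3% of all 32851 RefSeq promoters, TGACG in 17.8%, CCAAT in 33.8% and GGGATTCCC in 0.301%. H2-K1 and H2-D1 held all 4 motifs in the same order, with TGACG followed within 40 bases by ATTGG, the reverse of CCAAT. That pair in that order was found in 0.956% of all promoters, and also in H2-M3 and B2m. H2-Q4 held the IRF-type motif. In the place of the TGACG of H2-D1, before ATTGG, it reads tgact, which is no match. Its own TGACG is another stretch, after ATTGG. H2-T23 held 2 IRF-type matches and 1 CCAAT, with no TGACG or GGGATTCCC. The Tap1 window held TGACG and CCAAT, the Tapbp window held 2 matches of CCAAT, and the Psmb8 window held none of the 4.

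**Figure D1:**
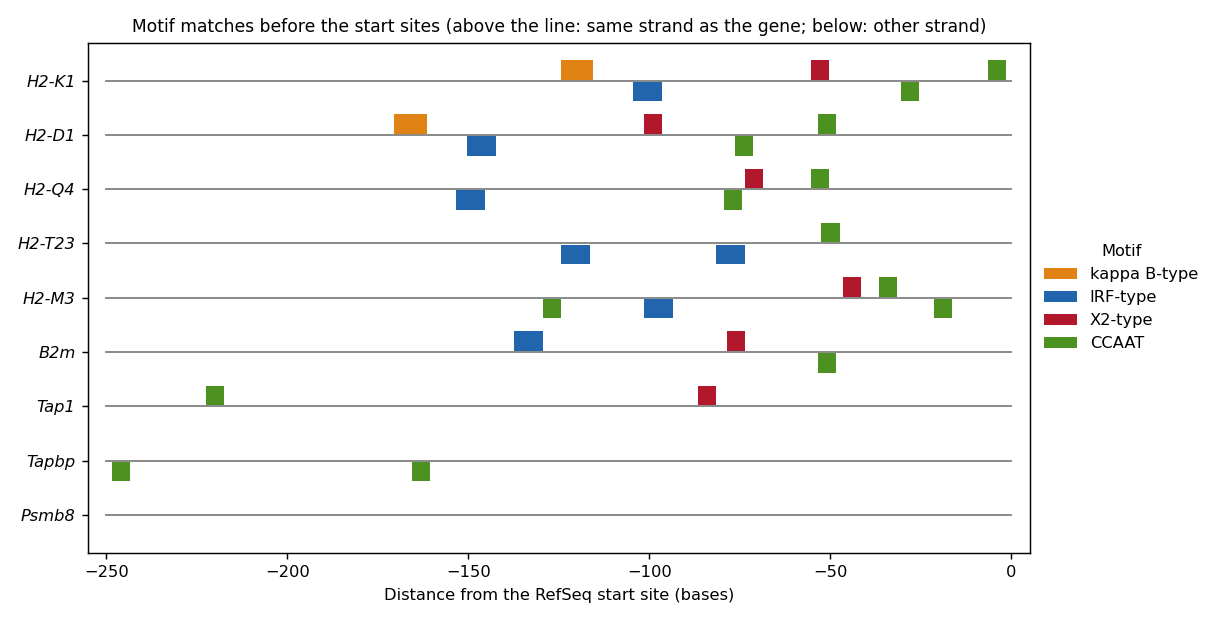
Positions of the 4 motifs in the 250 bases before the RefSeq start sites of 9 members, in bases from the start, with matches on the strand of the gene above each line and those on the other strand below it. H2-K1 and H2-D1 show the same order of 4 motifs, and H2-T23 has 2 IRF-type matches and no X2-type match. H2-Q4 has its X2-type match nearer to the start than its first CCAAT match, in another stretch than that of H2-D1.

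The classical heavy chains were lower in Trp than in HFD libraries, and about as low in IPA libraries. H2-K1, a classical heavy chain that presents peptides to CD8 T cells, had 21.4, 23.01 and 22.6 CPM in Trp, 24.5, 26.4 and 18.6 CPM in IPA and 35.1, 37.2 and 46.7 CPM in HFD libraries. All 6 libraries of the supplemented groups lay below all 3 HFD libraries. The mean was 22.3 ± 0.856 CPM in Trp, 23.2 ± 4.06 CPM in IPA and 39.7 ± 6.17 CPM in HFD (SD, n = 3 each), and the log2 fold change was -0.83 (SE 0.14) for Trp against HFD. The Trp mean was 56.2% of the HFD mean in that fit.

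H2-D1, the other classical heavy chain of the table, differed in the same direction and by less. It had 30.4, 35.2 and 31.9 CPM in Trp, 28.8, 34.3 and 28.6 CPM in IPA and 40.3, 39.8 and 47.7 CPM in HFD libraries. Again the HFD libraries were the 3 highest of the 9. The log2 fold change for Trp against HFD was -0.39 (SE 0.11).

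H2-Q4 had the largest difference among the 10 genes in Trp against HFD. It encodes a nonclassical heavy chain of the Q region, known as Qb-1. Counts were 94, 95 and 93 in Trp, 90, 137 and 90 in IPA and 251, 263 and 268 in HFD libraries, which is 1.83, 2.27 and 1.87 CPM, 2.25, 3.38 and 2.13 CPM, and 5.37, 5.31 and 6.36 CPM in the same order of groups. The lowest HFD library had more H2-Q4 than the highest library of either supplemented group. The mean in Trp, 1.99 ± 0.244 CPM, was 35.1% of that in HFD, 5.68 ± 0.592 CPM (SD, n = 3 each), with a log2 fold change of -1.51 (SE 0.21). On the log2(FPKM + 1) scale, which shrinks the changes of low genes, it was -0.81.

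H2-T23 went the other way. It encodes Qa-1, a nonclassical heavy chain that presents leader peptides of other class I chains to receptors of natural killer cells. It had 10.05, 15.8 and 17.5 CPM in Trp, 6.78, 12.2 and 14.9 CPM in IPA and 8.82, 7.08 and 8.07 CPM in HFD libraries. The Trp libraries all lay above the HFD libraries, while the IPA libraries had both the lowest value and 2 of the higher ones. The log2 fold change for Trp against HFD was 0.85 (SE 0.28), with 0.69 without the third Trp library and 1.06 without the first. H2-M3, whose product presents N-formylated peptides, had 1.66, 2.49 and 1.71 CPM in Trp, 2.20, 2.42 and 1.75 CPM in IPA and 1.69, 2.32 and 2.28 CPM in HFD libraries, which overlapped in every comparison.

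B2m, the light chain shared by all class I molecules, had 65.9, 62.7 and 63.9 CPM in Trp, 63.8, 62.7 and 59.2 CPM in IPA and 59.1, 68.5 and 94.3 CPM in HFD libraries. The groups overlapped, and the third HFD library was the highest of the 9. The log2 fold change was -0.21 (SE 0.14) for Trp and -0.26 (SE 0.14) for IPA against HFD. Without that library it was 0.01 for Trp and -0.04 for IPA, so the lower B2m of both groups rested on it, whereas H2-K1 without it was still -0.70 for Trp against HFD.

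For the 3 genes of peptide transport and loading, both supplemented groups overlapped with HFD libraries. Tap1 and Tap2 encode the subunits of the TAP transporter, and tapasin, encoded by Tapbp, bridges TAP and the heavy chain. Tap1 had 1.15, 1.17 and 1.29 CPM in Trp, 1.83, 1.04 and 1.09 CPM in IPA and 2.01, 1.03 and 1.97 CPM in HFD libraries, on 42 to 94 counts per library. The Trp values lay inside the range of the HFD values. Tap2 was between 3.95 and 4.21 CPM in Trp, between 3.24 and 4.39 CPM in IPA and between 3.93 and 3.98 CPM in HFD libraries. Tapbp was between 19.1 and 20.3 CPM in Trp, between 17.8 and 21.8 CPM in IPA and between 20.1 and 22.5 CPM in HFD libraries. The log2 fold changes for Trp against HFD were -0.47 (SE 0.31) for Tap1, 0.04 (SE 0.17) for Tap2 and -0.15 (SE 0.10) for Tapbp.

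Psmb8, the immunoproteasome subunit that replaces Psmb5 in the catalytic ring, had 1.95, 1.41 and 2.36 CPM in Trp, 1.85, 2.32 and 1.30 CPM in IPA and 2.96, 2.68 and 3.21 CPM in HFD libraries. The HFD libraries were the 3 highest, and the log2 fold change for Trp against HFD was -0.62 (SE 0.25). Psmb5 itself was 93.4 ± 6.80 CPM in Trp, 83.1 ± 7.75 CPM in IPA and 86.5 ± 7.56 CPM in HFD (SD, n = 3 each). The FPKM ratio of Psmb8 to Psmb5 was 0.0112 ± 0.0024 in Trp, 0.0120 ± 0.0031 in IPA and 0.0199 ± 0.0023 in HFD (SD, n = 3 each). In every library the immunoproteasome subunit was thus a small part of the constitutive one at the transcript level.

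**Figure D2:**
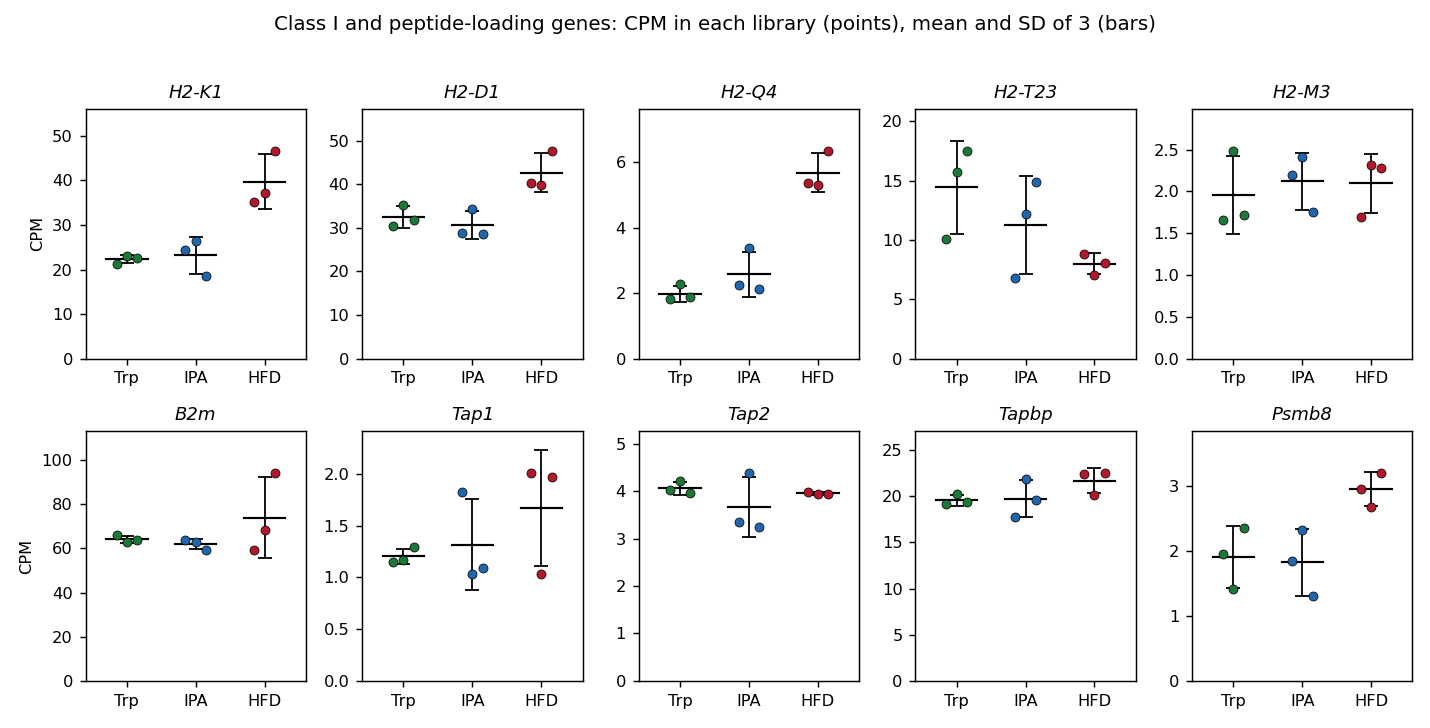
CPM of the 10 genes in each of the 9 libraries, with Trp, IPA and HFD from left to right, points for libraries, and bars for the mean and SD of 3; every axis starts at 0. In H2-K1, H2-D1, H2-Q4 and Psmb8 the 3 HFD libraries lie above the other 6, H2-T23 has its Trp libraries above its HFD libraries, and the third HFD library is the highest for B2m at 94.3 CPM.

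Counted over the members, 8 of 10 had a negative and 2 a positive log2 fold change in Trp against HFD, with a median of -0.30, against -0.0022 over all genes tested. H2-Q4 and H2-K1 were called lower, 2 of 10, where 0.128% of all genes were called lower, and no member was called higher, where 0.214% of all genes were. The groups did not overlap, with Trp lower, for 4 of 10 members (H2-K1, H2-D1, H2-Q4 and Psmb8), against 7.43% of all genes, and with Trp higher for 1 of 10 (H2-T23), against 8.06%. As the members were chosen on this comparison, nothing is read from these counts. By the DESeq2 Wald test, which called 1.87% of the genes it adjusted, H2-T23 was also called. The count of edgeR calls depended on single libraries: it was 0 without the first Trp library, and H2-Q4 alone was called without the second Trp, the third Trp, the first IPA or the second HFD library.

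For IPA against HFD the members were not chosen directly, but the same HFD libraries enter both comparisons, so this one is no independent repeat. No gavage is stated for the HFD group, so the compound and the daily gavage cannot be told apart in IPA against HFD. Again 8 of 10 members had a negative log2 fold change, with a median of -0.30, against -0.0056 over all genes. The log2 fold change was -0.78 (SE 0.14) for H2-K1, -1.13 (SE 0.21) for H2-Q4 and -0.48 (SE 0.11) for H2-D1, and all 3 IPA libraries were below all 3 HFD libraries for each of them. By edgeR the adjusted p was 0.14 for H2-K1 and H2-Q4 and 0.2 for H2-D1, and none of the 10 members was called, where 0.00535% of all genes, a single gene, were called and 1946 genes had an unadjusted p under 0.05. By DESeq2, which called 0.455% of all genes lower, H2-K1 (adjusted p = 0.000373), H2-Q4 (adjusted p = 0.000481) and H2-D1 (adjusted p = 0.0157) were called lower. The call for the classical chains in IPA libraries thus differed between the tools, while sizes and directions were alike.

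The other members did not pass by either tool in IPA against HFD. Psmb8 had a log2 fold change of -0.69 (SE 0.25, edgeR adjusted p = 0.393), with IPA libraries all below HFD libraries. H2-T23 had 0.50 (SE 0.28, edgeR adjusted p = 0.57), with overlapping groups. Tap1, Tap2, Tapbp and H2-M3 lay between -0.34 and 0.02. In all, the IPA group was below the HFD group without overlap for 4 of 10 members, against 8.01% of all genes, and above it for 0 of 10, against 7.19%.

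The supplemented groups were also compared with each other, although tryptophan was given in the diet and indole-3-propionic acid by gavage, at doses that cannot be matched. Indole-3-propionic acid has the indole ring and the side-chain acid of tryptophan without its amino group. No member was called in Trp against IPA, where 0% of all genes were called by edgeR, 840 genes had an unadjusted p under 0.05 and DESeq2 called 15. For H2-K1 the log2 difference was -0.06, with a 95% interval of -0.35 to 0.24, and for H2-D1 it was 0.09, with an interval of -0.15 to 0.33. H2-Q4 had -0.38, with an interval of -0.84 to 0.08, and H2-T23 had 0.36, with an interval of -0.27 to 0.98. All 10 adjusted p-values lay between 0.987 and 0.997 by edgeR. These intervals leave room for differences of nearly a doubling in H2-T23 and are narrower for the classical chains.

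**Figure D3:**
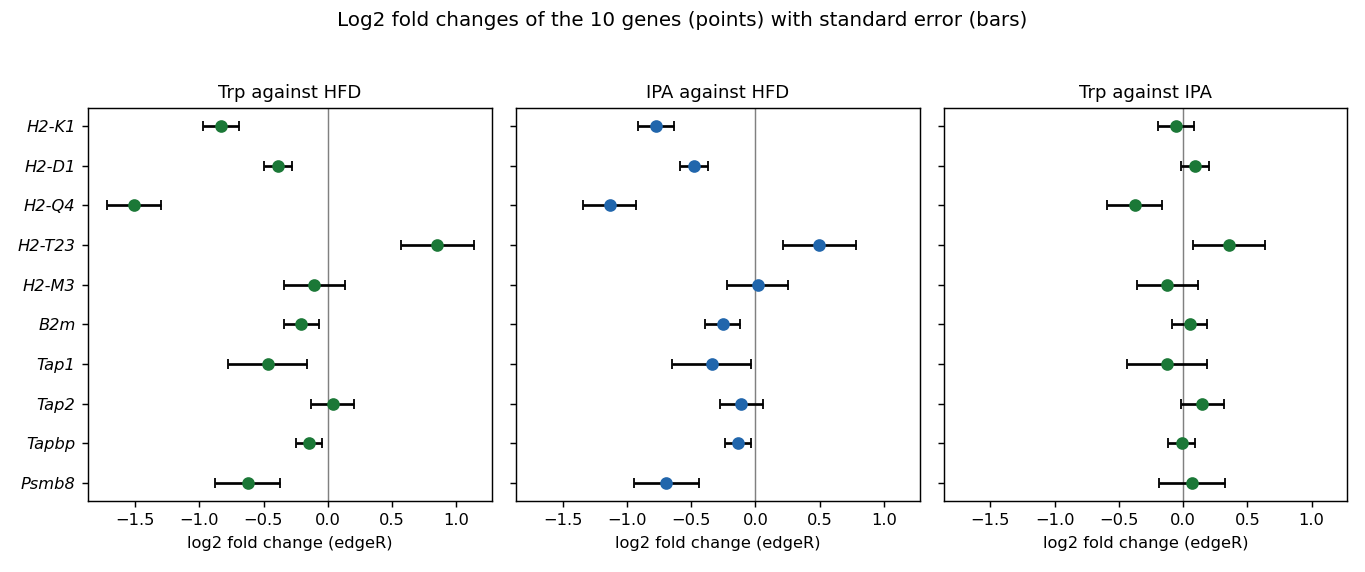
Log2 fold changes of the 10 genes from the edgeR fit, in 3 panels, of Trp and then IPA against HFD, and of Trp against IPA, with bars for the standard error. The first and second panels, which share the HFD libraries, place H2-Q4 (-1.51 and -1.13) and H2-K1 (-0.83 and -0.78) lowest and H2-T23 (0.85 and 0.50) highest, and the last panel lies between -0.38 and 0.36.

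Per length, the order of the members over the 9 libraries was B2m at 70.0 FPKM, H2-K1 at 16.1 FPKM, H2-D1 at 15.5 FPKM, Tapbp at 7.09 FPKM and H2-T23 at 6.71 FPKM, followed by H2-Q4 at 1.39 FPKM, H2-M3 at 1.29 FPKM, Psmb8 at 1.26 FPKM, Tap2 at 1.03 FPKM and Tap1 at 0.404 FPKM. H2-K1 and H2-D1 overlapped in their ranges over libraries, as did H2-Q4, H2-M3 and Psmb8. Transcripts of the 5 heavy chain members together had 39.2 ± 4.90 FPKM in Trp, 34.8 ± 4.44 FPKM in IPA and 48.9 ± 4.81 FPKM in HFD (SD, n = 3 each). B2m over this sum was 1.80 ± 0.229 in Trp, 1.84 ± 0.195 in IPA and 1.54 ± 0.206 in HFD (SD, n = 3 each), with overlapping groups.

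The make-up of the summed transcripts of these 5 members differed between groups, as did the size of the sum. Both hold for these 5 genes only, since other class I genes are left out. Among those, H2-T22 had 11.7 ± 1.17 FPKM in Trp, 9.97 ± 1.73 FPKM in IPA and 8.91 ± 0.833 FPKM in HFD (SD, n = 3 each). Of the summed FPKM of the 5 heavy chain genes, H2-K1 made up 36.4%, 31.7% and 32.9% in Trp, 42.7%, 36.6% and 32.3% in IPA and 42.9%, 45.6% and 47.0% in HFD libraries. The share of H2-D1 was 38.5% ± 1.86 in Trp, 37.6% ± 1.04 in IPA and 37.8% ± 0.726 in HFD (SD, n = 3 each), which is close to level. H2-T23 made up 17.9%, 23.4% and 25.8% in Trp, 12.0%, 18.2% and 25.5% in IPA and 11.3%, 9.13% and 8.61% in HFD libraries, so that every supplemented library had a larger share than any HFD library. Accordingly H2-K1 over H2-D1 was 0.875 ± 0.0486 in Trp, 0.987 ± 0.115 in IPA and 1.19 ± 0.0758 in HFD (SD, n = 3 each). As ratios of genes already chosen for their levels, these values are a description without a test.

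**Figure D4:**
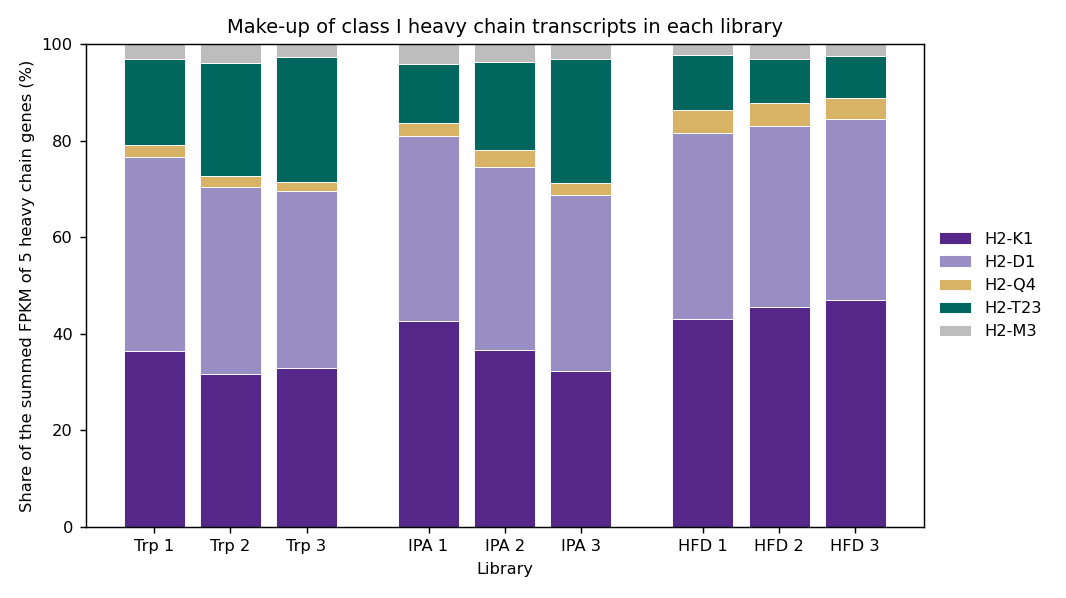
Share of each of 5 heavy chain genes in their summed FPKM, in percent, for each library, with Trp, IPA and HFD from left to right. H2-K1 fills 31.7% to 36.4% of the bar in Trp and 42.9% to 47.0% in HFD libraries, H2-T23 fills 17.9% to 25.8% in Trp and 8.61% to 11.3% in HFD libraries, and H2-D1 is near 38% in all groups.

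Class I genes resemble one another in sequence, so the counting itself bears on these levels. In the GENCODE M21 transcripts, stretches of 50 bases that also occur in a transcript of another gene made up 9.63% of H2-K1, 12.8% of H2-D1, 21.8% of H2-Q4 and 13.6% of H2-T23, but 0.576% of H2-M3 and 0% of B2m. For stretches of 100 bases the shares were 0.957% for H2-K1, 3.59% for H2-D1, 2.16% for H2-Q4 and 3.15% for H2-T23. The gene that shared most with H2-Q4 at 50 bases was H2-Q6, with 9.68%. How reads that fit several genes were counted is not given in the sources used here, and values of these 4 genes are uncertain to that extent. Tap1 overlaps Psmb9, on the opposite strand, over 212 bases, where reads cannot be told apart without strand information. Tapbp overlaps Zbtb22 over 3422 bases on the same strand, where strand information would not part them. Zbtb22 had 10396 counts and Tapbp 8201 in all libraries together. The partners of H2-Q4, H2-T23 and B2m had 55 to 77 counts in all libraries together.

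Position along chromosome 17 was not used to choose the members. Between H2-K1 and H2-M3 the table lists 301 genes, of which 124 were tested, 16 of them class I genes. Among the 108 genes that are not class I genes 0 were called in Trp against HFD by edgeR and the median log2 fold change was 0.02, with 5 genes lower and 12 higher without overlap of the groups, against 7.43% and 8.06% of all genes tested. Among the 16 class I genes 6 were lower without overlap, namely H2-K1, H2-D1, H2-Q4, H2-Q5, H2-Q6 and H2-Q7, and 4 were higher, namely H2-T10, H2-T22, H2-T23 and H2-T24, which is 37.5% and 25% of them. Of these, 3 of the lower and 1 of the higher are members chosen on this comparison. In IPA against HFD 4 of the 16 were lower without overlap and 1 was higher, against 8.01% and 7.19% of all genes. Of the 108 other genes 72.2% had a negative log2 fold change there, with a median of -0.07, against 51.1% of all genes. By place, in Trp against HFD, the genes H2-Q4 to H2-Q7 lay next to each other and had log2 fold changes from -1.51 to -1.99. The Q genes before them went the other way, with 0.14 for H2-Q1 and 0.54 for H2-Q2. H2-Q5 had only 85 counts in all libraries together. The 6 tested genes from H2-T24 to H2-T10 had 0.37 to 0.85. These runs of genes were noticed after the values were seen, and neighbouring Q genes share sequence with H2-Q4.

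H2-Q7, which encodes Qa-2, shows how low the partners of H2-Q4 were: it had 10, 32 and 1 counts in Trp, 32, 42 and 5 in IPA and 55, 45 and 72 in HFD libraries. H2-Q6, its close relative, had 13, 43 and 13 counts in Trp, 34, 47 and 7 in IPA and 71, 63 and 93 in HFD libraries. Both varied over libraries of a group far more than H2-Q4 did, and neither passed the test in Trp against HFD, with an edgeR adjusted p of 0.372 for H2-Q6 and 0.472 for H2-Q7. H2-T22, a heavy chain that gamma delta T cells recognise without peptide, had 25.2, 28.2 and 29.2 CPM in Trp, 21.3, 27.9 and 23.5 CPM in IPA and 23.1, 21.1 and 19.9 CPM in HFD libraries. Its log2 fold change for Trp against HFD was 0.37 (SE 0.11, edgeR adjusted p = 0.255).

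**Figure D5:**
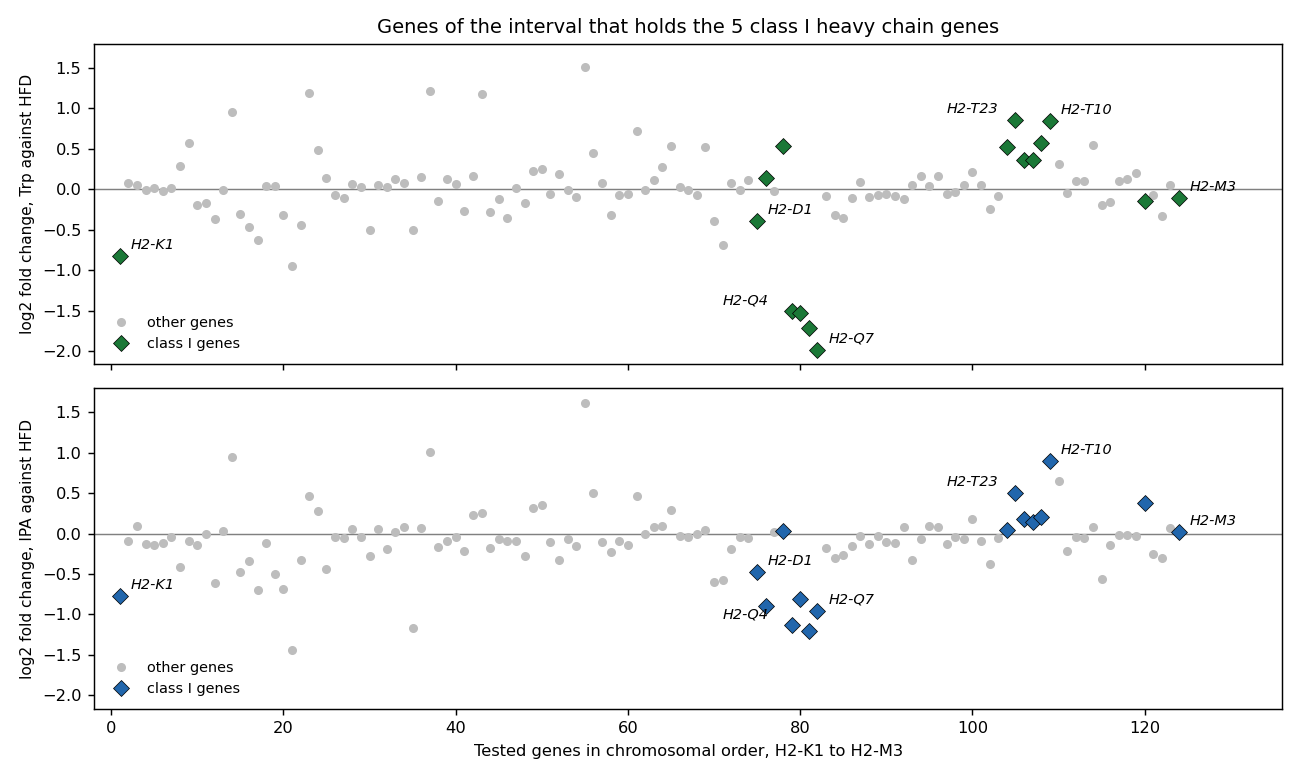
Log2 fold changes of the 124 tested genes between H2-K1 and H2-M3 in chromosomal order, for Trp against HFD (upper panel) and IPA against HFD (lower panel), with class I genes as diamonds and other genes as grey points. The diamonds of H2-Q4 to H2-Q7 lie between -1.99 and -1.51 in the upper panel, where those of H2-Q1 and H2-Q2 lie above 0. Those of the T region lie above 0 in both panels, with H2-T24 at only 0.04 in the lower one. The median of the other genes is 0.02 in the upper panel and -0.07 in the lower one, where 72.2% of them lie below 0.

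The wider pathway was read from 8 lists of 147 genes, of which 117 were tested, and Gbp3 was the only one of them that edgeR called in Trp against HFD, with none called in IPA against HFD. The list of class I and class I-like genes outside the 10 members had 14 tested genes. It is partial and leaves out H2-Q5 (-1.53 in Trp against HFD) and H2-T-ps (0.57), which were tested. Of the 14 listed, 11 had a positive log2 fold change in Trp against HFD, with a median of 0.37, and in IPA against HFD 10 did, with a median of 0.09. Besides the T-region genes these include Hfe, a class I-like protein of iron control, at 6.05 ± 1.09 CPM in Trp and 4.25 ± 0.845 CPM in HFD (SD, n = 3 each; edgeR adjusted p = 0.337).

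Chaperones and helpers of loading differed in both directions. Of 12 genes, 5 had a positive and 7 a negative log2 fold change in Trp against HFD, with a median of -0.0045. Their summed level was 1529 to 1570 CPM in Trp, 1389 to 1668 CPM in IPA and 1224 to 1503 CPM in HFD libraries, with Trp above HFD and IPA overlapping both. Calr, the chaperone calreticulin of the loading complex, was 351 ± 39.9 CPM in Trp and 277 ± 14.8 CPM in HFD (SD, n = 3 each; edgeR adjusted p = 0.355). Pdia3, the oxidoreductase ERp57 that pairs with tapasin, was 231 ± 8.73 CPM in Trp and 191 ± 34.0 CPM in HFD (SD, n = 3 each; edgeR adjusted p = 0.421). Hspa5, the general chaperone BiP, had a log2 fold change of 0.47 (SE 0.16, edgeR adjusted p = 0.31). Ufsp2, which is on this list but is no established loading factor, had 0.22 (SE 0.08, edgeR adjusted p = 0.319). For Calr, Hspa5 and Ufsp2 all Trp libraries lay above all HFD libraries, as for 8.06% of all genes, and none of them passed the test. They were named for their small p in this comparison.

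None of the 6 genes of the inducible proteasome and the PA28 regulator outside the members was called in either comparison with HFD. Psmb9, the subunit encoded next to Tap1, was 0.997 ± 0.0893 CPM in Trp, 0.892 ± 0.227 CPM in IPA and 1.23 ± 0.354 CPM in HFD (SD, n = 3 each), with an edgeR adjusted p of 0.758 for Trp and 0.6 for IPA against HFD. Psmb10 was 29.7 ± 6.44 CPM in Trp, 25.8 ± 2.56 CPM in IPA and 30.8 ± 2.31 CPM in HFD (SD, n = 3 each). Of the regulator PA28, Psme1 had a log2 fold change of -0.05 (SE 0.11), Psme2 of 0.01 (SE 0.11) and the nuclear form Psme3 of 0.05 (SE 0.08) in Trp against HFD, and the assembly factor Pomp had -0.04 (SE 0.09). All 14 constitutive 20S subunit genes had a positive log2 fold change in Trp against HFD, with a median of 0.15, and none was called. In IPA against HFD 12 of 14 were positive, with a median of 0.05. Psma2 had the smallest p of them, with a log2 fold change of 0.30 (SE 0.09, edgeR adjusted p = 0.229) for Trp against HFD, followed by Psmb7, Psmb1 and Psma1 with 0.18 to 0.21.

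Of the factors that drive class I genes, Nlrc5, the coactivator recruited to the W/S, X and Y boxes, was close to the limit of this depth, with 24, 20 and 34 counts in Trp, 13, 20 and 16 in IPA and 31, 32 and 33 in HFD libraries. Its log2 fold change was -0.35 (SE 0.33) for Trp and -0.80 (SE 0.34) for IPA against HFD, with edgeR adjusted p-values of 0.747 and 0.461. Irf1, which binds interferon-response elements, was 3.11 ± 0.791 CPM in Trp, 3.08 ± 0.823 CPM in IPA and 3.80 ± 0.463 CPM in HFD (SD, n = 3 each). It did not pass the test in either comparison with HFD. Ifng and Ifnb1, the genes of interferon gamma and beta, had 0 counts in all 9 libraries, which allows up to 0.0584 to 0.0751 CPM. In all, 8 of the 27 tested regulators had a positive and 19 a negative log2 fold change in Trp against HFD, with a median of -0.08 and 0 called. The 4 with the smallest p were Ifngr1 (0.40) and Jak2 (0.28), a receptor chain and a kinase of the interferon gamma pathway, Irf9 (-0.47), a subunit of the interferon-response complex ISGF3, and Nfyb (-0.24), a CCAAT-binding subunit, with edgeR adjusted p-values of 0.231 to 0.381.

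Most interferon-stimulated genes had lower estimates in both supplemented groups, and 1 passed the test, in Trp against HFD. Of 31 tested genes, 25 had a negative log2 fold change in Trp against HFD, with a median of -0.35, and 28 in IPA against HFD, with a median of -0.45. Gbp3, a guanylate-binding protein induced by interferon gamma, had 3.88, 2.99 and 3.24 CPM in Trp, 3.68, 4.29 and 3.95 CPM in IPA and 6.55, 6.64 and 7.31 CPM in HFD libraries. It fell in Trp against HFD, with a log2 fold change of -1.02 (SE 0.16, edgeR adjusted p = 0.0206), and for IPA against HFD it had -0.78 (SE 0.16, edgeR adjusted p = 0.148). The adjusted p of Gbp3 for Trp against HFD was 0.14 without the second Trp library, 0.0541 without the first HFD and 0.0591 without the second HFD library, and 0.0704 with the replicate number as a block. Gbp2 (-1.05, edgeR adjusted p = 0.0752), Gbp4 (-1.22, edgeR adjusted p = 0.157) and Iigp1 (-1.43, edgeR adjusted p = 0.15) are further GTPases of this response. They were named for their small p in Trp against HFD and did not pass edgeR there. Their Trp libraries were all below the HFD libraries, as for 7.43% of all genes. DESeq2 called all 3 lower there, with adjusted p-values of 0.00107 for Gbp2, 0.0409 for Gbp4 and 0.0176 for Iigp1. By edgeR Gbp2 also passed without a filter (adjusted p = 0.043) and without the third HFD library (adjusted p = 0.0478), and Iigp1 without the first IPA library (adjusted p = 0.0459). The log2 fold change of Gbp4 was -0.85 without the third HFD library.

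Class II genes serve presentation to CD4 T cells. Of 9 tested genes, 3 had a positive and 6 a negative log2 fold change in Trp against HFD, with a median of -0.12, and none was called. Cd74, the invariant chain, was 1.76 ± 0.358 CPM in Trp, 0.971 ± 0.507 CPM in IPA and 1.91 ± 1.08 CPM in HFD (SD, n = 3 each), where the third HFD library alone had 3.16 CPM. Without that library the log2 fold change of Cd74 for Trp against HFD was 0.44. H2-DMb1, which edits the class II peptide, had 0.95 (SE 0.29, edgeR adjusted p = 0.234) for Trp against HFD, H2-Aa had -0.94 (SE 0.57), H2-Eb1 had -0.44 (SE 0.44) and H2-Oa had 0.57 (SE 0.44).

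Receptors of class I molecules and genes of T cells differed widely in level. The table held 19 genes of this list, of which 4 were tested. Cd8a, the coreceptor for class I, had 0 to 6 counts per library, Cd3e had 0 to 12 and Nkg7 0 to 4. The tested genes were Cd4 (0.53 in Trp against HFD), Trac (-1.25), the inhibitory class I receptor Pirb (0.20) and Trbc2 (0.02). Cd4 had 6.41 to 29.9 CPM and Trbc2 13.2 to 23.1 CPM over the 9 libraries, and for both the third HFD library was the lowest. Without that library the log2 fold change for Trp against HFD was 0.15 for Cd4, -0.18 for Trbc2 and -0.85 for Trac. Trac, the T cell receptor alpha constant region, had 37, 11 and 23 counts in Trp, 13, 18 and 10 in IPA and 50, 34 and 73 in HFD libraries, with an edgeR adjusted p of 0.306 for Trp and 0.265 for IPA against HFD. None of the 4 passed the test.

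These are bulk libraries, in which fewer cells of a type and less RNA per cell cannot be told apart, and markers of cell types that carry class I differed between groups. All 15 microglia markers were detected and had a positive log2 fold change in Trp against HFD, with a median of 0.60, and 4 of 15 were called higher, where 0.214% of all genes were, Ctss, C1qa and C1qb among them. Their summed level was 452 to 590 CPM in Trp, 333 to 348 CPM in IPA and 305 to 338 CPM in HFD libraries, so that microglia markers were higher in the Trp libraries in which H2-K1 and H2-Q4 were lower, and overlapped between IPA and HFD. Aif1, the marker named for all comparisons, was 5.35 ± 0.942 CPM in Trp, 3.86 ± 0.429 CPM in IPA and 3.72 ± 0.282 CPM in HFD (SD, n = 3 each). Of the endothelial markers, 10 of 13 had a negative log2 fold change in Trp against HFD and 12 of 13 in IPA against HFD, with sums of 321 to 383 CPM in Trp, 303 to 319 CPM in IPA and 358 to 414 CPM in HFD libraries. Cldn5, the tight junction claudin of brain endothelium, had 14.9, 20.1 and 24.7 CPM in Trp, 14.0, 19.1 and 16.5 CPM in IPA and 30.5, 23.7 and 21.2 CPM in HFD libraries. Red cell markers summed to 234 to 383 CPM in Trp, 248 to 399 CPM in IPA and 572 to 2213 CPM in HFD libraries, and all 6 tested ones had a negative log2 fold change in both comparisons with HFD. The HFD libraries thus had the most red cell RNA and the highest values of 4 members, H2-K1, H2-D1, H2-Q4 and Psmb8. H2-T23 went the other way in Trp against HFD. Whether endothelial, microglial or blood content had a part in the class I values was not tested.

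By likeness over the 9 libraries, measured as Pearson's r of log2 CPM among 13215 genes with a mean of at least 1 FPKM, H2-Q4 was most like Bri3bp (r = 0.97) and then H2-K1 (r = 0.95), Bcl2l2 and Sox21 (both r = 0.94). H2-K1 was most like Bri3bp, Sfxn5, Plekha7 and Aco1, at r of 0.95 to 0.96. In H2-K1 and H2-Q4 the HFD libraries stand apart from the other 6, which these values include. Of the genes named, Sfxn5 had 170 ± 2.58 CPM in Trp, 170 ± 17.4 CPM in IPA and 207 ± 16.1 CPM in HFD (SD, n = 3 each), and Sox21 had 5.57 ± 0.639 CPM in Trp, 5.85 ± 0.402 CPM in IPA and 8.38 ± 0.448 CPM in HFD (SD, n = 3 each). B2m was most like Unc5c, Rchy1, Sema6d and Tprkb, at r of 0.95 to 0.97. Without the first and the third HFD libraries r was 0.73, 0.77, 0.34 and 0.42 in the same order of genes. Among the members, the pairs H2-K1 and H2-Q4 (r = 0.95), H2-K1 and H2-D1 (r = 0.93) and H2-D1 and H2-Q4 (r = 0.90) were the most alike, and H2-T23 had a negative r with H2-K1 (-0.64) and H2-Q4 (-0.59). These values describe 9 libraries in 3 groups and carry no test.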

How the data were processed

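Polyadenylated RNA was sequenced from tissue labelled hippocampus. StringTie 2.1.3b and mm10 are listed in the submitters' processing notes; an aligner and a counter are not given in sources used here. From 1 deposited table, per the file headers, came the authors' counts per gene, as whole numbers without scaling, and the authors' FPKM, fragments per length and library size. All library columns were mapped through names the labels pair with samples, and 0 columns of per-sample values were left over. The authors' own comparison columns were not used.

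Counts were fitted across all genes with edgeR 4.0.16 in R 4.3.3 (filterByExpr with a minimum count of 10, TMM, robust quasi-likelihood, 1 mean per group over 9 libraries), with two-sided tests and Benjamini-Hochberg adjustment over 18690 genes. With 3 libraries a group, an exact permutation test has 0.1 as its smallest two-sided p. Alternatives were DESeq2 1.42.0, RLE scaling, no filter, a fit of only the 6 libraries of a comparison, a replicate block, limma 3.58.1 on log2 FPKM with pseudocounts of 0.5, 0.1 and 1 (FPKM 1 or more in 3 or more libraries, which leaves out Tap1), leaving out each library, and adjusted p under 0.1. Scripts were checked on simulated data. Promoters come from RefSeq (GRCm38.p6), for 9 of the 10 members, and Tap2 is named only. Nothing in the labels says more of the mice than their group, so p-values measure the spread between these samples.

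The members, gene lists, motifs and tests were chosen with earlier results of these data known. Genes named are the 10 members, up to 4 tested genes of each list with the smallest unadjusted p in Trp against HFD and any called, the 4 genes most like H2-K1, H2-Q4 and B2m, and a set list of regulators, proteasome genes and markers. H2-Q1, H2-Q2, H2-Q5, H2-T24, H2-T-ps, Ctss, C1qa, C1qb, Cd3e and Nkg7 were named after their values were seen. Some genes that the rule names are not reported here. Python 3.11.15 with matplotlib 3.10.9 drew the figures.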

Additional observations from a re-analysis of the deposited data

How the results depend on the processing

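In Trp against HFD 64 genes were called in all. The count was 309 by DESeq2, 119 at adjusted p under 0.1, 97 without a filter, 23 with the replicate block and 8 with only the 6 libraries compared, and leaving out 1 library gave 13 to 323, the highest without the third HFD library and the lowest without the second Trp library. In IPA against HFD the single call became 171 by DESeq2, 6 without a filter, 2 at adjusted p under 0.1 and with only the 6 libraries, 0 with the replicate block, and 0 to 52 when 1 library was left out, the highest again without the third HFD library. In Trp against IPA 0 calls became 15 by DESeq2, 3 without a filter, 2 by limma at each pseudocount, and 0 to 1 when 1 library was left out. Of the other antigen presentation genes, 1 was called in Trp against HFD, with 4 by DESeq2, 2 at adjusted p under 0.1 and without a filter, 0 by limma with a pseudocount of 0.1, with only the 6 libraries and with the replicate block, and 0 to 3 when 1 library was left out. In IPA against HFD DESeq2 called 2 of them. The cause of these differences was not tested.

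The calls of members also depended on the setting. In Trp against HFD, the comparison on which the members were chosen, H2-K1 was called in 10 and not called in 7 of 17 alternatives. It was not called with only the 6 libraries, with the replicate block, and without the second HFD, the first IPA or any 1 of the 3 Trp libraries. H2-Q4 was called in 16 of them, all but the fit without the first Trp library, and H2-T23 in 1, by DESeq2. In IPA against HFD, H2-K1, H2-D1 and H2-Q4 gained a call by DESeq2 and H2-K1 without a filter. H2-M3 in IPA against HFD changed sign and ranged from -0.12 to 0.14 when 1 library was left out. In the same fits H2-K1 ranged from -0.91 to -0.70 and H2-Q4 from -1.61 to -1.42 in Trp against HFD. The replicate block left 23 genes called. The 9 correlations of same-numbered libraries ranged from -0.20 to 0.05, with 0 over 0.1, while HFD 3 and Trp 1, of different number, had 0.26. They show no sign of a pairing by number, but low correlations cannot exclude one.

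Several other antigen presentation genes changed sign in Trp against HFD, H2-Aa (main value -0.94) without the third HFD library. When 1 library was left out, Cd74 ranged from -0.37 to 0.44, H2-Aa from -1.34 to 0.082, H2-Eb1 from -0.79 to 0.12, Pirb from -0.00024 to 0.51, Pomp from -0.11 to 0.022, Psmb10 from -0.24 to 0.041, Psme1 from -0.12 to 0.033, Psme2 from -0.042 to 0.079 and Trbc2 from -0.18 to 0.18. By limma with pseudocounts of 0.5, 0.1 and 1, Cd74 had 0.0513, 0.0896 and 0.0295, Pomp 0.0356, 0.0358 and 0.0354, and Psme1 0.0258, 0.0261 and 0.0256. Depth limits the low members, since Tap1, H2-Q4, H2-M3 and Psmb8 had between 42 and 268 counts per library, and the limits given for 0 counts cover counting error only.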

Other observations

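Creb1, listed here among the factors of the X2 box, had 85 counts (2.02 CPM) in the third HFD library, against 46.7 to 59.4 CPM in the other 8 libraries. The same library had the highest B2m of the 9. Of the class I-like genes, Mr1 had 6.47, 5.79 and 4.98 CPM in Trp, 6.38, 5.89 and 5.06 CPM in IPA and 3.68, 4.72 and 7.24 CPM in HFD libraries. The groups overlapped for Mr1, which was picked after its values were seen.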
